A study of Mus musculus with 2 samples.

Results

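Thalamic relay nuclei, the nuclei of glutamatergic neurons of the dorsal thalamus, were picked from single-nucleus RNA sequencing of the mouse brain by the unique molecular identifiers (UMIs, each a counted RNA molecule) of 6 genes. A nucleus was taken when it had 300 to 7000 genes and at least 2000 UMIs, at least 5 UMIs of *Synpo2* and at least 2 of *Tcf7l2*. It could hold at most 2 UMIs of *Gad1* and *Gad2* together, and at most 5 of *Mobp* and *St18* together. This left 1033 of the 30413 nuclei. The Normal library gave 324 of its 12204 nuclei and the library made after subarachnoid haemorrhage (SAH) gave 709 of its 18209.

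Each library was made from the pooled tissue of 3 male mice aged 6 to 8 weeks, per the labels, and the study's methods give another age range for its C57BL/6J mice. The tissue came from 1 hemisphere, cut between the medial prefrontal cortex and the central lateral thalamus. The SAH mice were taken 12 h after an artery at the base of the brain was perforated from within by a filament. The control mice are called normal in the labels and sham in the paper, so whether they had been operated on is not settled. With 1 library per condition there was no replicate and no test, and condition, mice and library cannot be told apart. Levels (CPM) are UMIs of a gene per 1000000 UMIs of the group of nuclei. Differences are log2 ratios, and the 95% intervals in square brackets cover counting error only.

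Relay neurons carry sensory, motor and limbic signals to the cortex and release glutamate, which the transporter encoded by *Slc17a6* loads into vesicles. They fire single spikes when depolarised and bursts when hyperpolarised, a switch that rests on T-type calcium channels and on the HCN channels that carry the pacemaker current. *Tcf7l2* and *Lef1*, transcription factors that bind beta-catenin in the Wnt pathway, mark these neurons, and *Prkcd*, a protein kinase C, marks many but not all nuclei of the dorsal thalamus.

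The picked nuclei carried the thalamic markers that the choice had not used. *Slc17a6* was seen, with at least 1 UMI, in 95.4% [92.5, 97.4] of the Normal and 92.5% [90.3, 94.3] of the SAH relay nuclei. In cortical-type nuclei, which were chosen by cortical markers including *Slc17a7*, the shares were lower but not 0, at 19.6% and 19.2%. Median depth was 16350 UMIs in Normal and 16025 in SAH relay nuclei, and 16891 and 17091.5 in cortical-type nuclei. *Lef1* was seen in 92.0% and 80.4% of the relay nuclei, against 0.605% and 1.43% of the cortical-type nuclei. *Vav3*, which encodes an activator of small GTPases, was seen in every Normal relay nucleus and in 98.9% of those of SAH, against 32.8% of the cortical-type nuclei in each library. The label therefore held by its markers for most nuclei, while 15 Normal and 53 SAH nuclei had no *Slc17a6* UMI, and of these 9 and 37 had no *Slc17a7* either.

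General neuronal markers, led by *Syt1*, summed to 4881 and 4590.9 CPM in relay nuclei, beside 5092.8 and 5261.2 CPM in the other nuclei. Marker sums of other cell types lay below those of the other nuclei, except for astrocytes. The 6 cortical excitatory markers summed to 211 CPM in Normal and 194 in SAH relay nuclei, led by *Cux2* at 141 and 134 CPM, against 504 and 384 in the other nuclei within the limits. The 5 inhibitory markers summed to 59.9 and 122 CPM, most of it *Erbb4* at 47.4 and 110.0 CPM, where the other nuclei had 1770.2 and 1787.7 CPM. *Gad1* and *Gad2* are in this list and were limited by the choice. The inhibitory sum was higher in SAH with at least 3 *Prkcd* UMIs, at 54.8 and 90.9 CPM, and with 0, at 69.1 and 170 CPM. The 6 oligodendrocyte markers, 2 of them limited by the choice, stood at 67.0 and 53.8 CPM, against 769.9 and 795 in the other nuclei. The 6 astrocyte markers reached 335 and 417 CPM, but nearly all of this was *Slc1a2*, at 333 and 413 CPM, and *Gja1* was at 0 in Normal. The other nuclei had 259 and 225 CPM, so the astrocyte sum was higher in relay nuclei in both libraries, while cortical-type nuclei had 456 and 364 CPM. The 5 microglial markers gave 102 and 138 CPM, led by *P2ry12* at 58.7 and 89.2 CPM, against 156 and 179 CPM in the other nuclei. The 4 markers of oligodendrocyte precursors summed to 10.6 and 10.2 CPM and the 5 striatal markers to 13.0 and 25.8 CPM, with *Ppp1r1b* and *Adora2a* at 0 in Normal. Markers of the habenula, a neighbour of the thalamus, summed to 4.28 and 3.18 CPM, with *Pou4f1* at 0 in both libraries. The 5 hypothalamic markers summed to 0.855 and 1.63 CPM, with *Fezf1* at 0 in both, and the 6 vascular markers to 3.25 and 3.51 CPM, with *Cldn5* at 0 in both. The 4 haemoglobin genes summed to 2.91 and 2.04 CPM. The part of these sums in the results below was not tested.

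Relay nuclei made up 3.23% [2.89, 3.59] of the Normal nuclei within the limits on genes and UMIs and 4.64% [4.31, 4.98] of those of SAH. Their depth per nucleus was alike, with medians of 4411 and 4237 genes, and they held 5846399 UMIs in all in Normal and 12269171 in SAH. Mitochondrial UMIs were 0.0489% and 0.0382% of the total. A share of nuclei depends on how the tissue was cut and dissociated as well as on the cells, and these cannot be told apart here. The nuclei just inside the *Synpo2* limit, with 5 UMIs, numbered 19 and 42, and those just outside it, with 4 UMIs, 28 and 38. *Lef1* lay at 405 and 102 CPM just inside the limit and at 196 and 64.8 CPM just outside it, below the level of all relay nuclei in either library. Of the barcodes, 78 occurred in both libraries, none of them in relay nuclei of both.

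The thalamic transcription factors *Lef1* and *Tcf7l2* were lower in the SAH library. *Lef1* (chromosome 3, 131110471 to 131224356, plus strand of GRCm38) had 702 CPM [681, 724] in Normal and 351 CPM [341, 362] in SAH, for a log2 ratio of -1.0 [-1.06, -0.94]. *Tcf7l2* (chromosome 19, 55741820 to 55933654, plus strand) had 689 CPM [668, 711] and 423 CPM [412, 435], a log2 ratio of -0.70 [-0.76, -0.64]. The SAH library stood below the Normal library for both genes, and the counting intervals did not overlap. Because at least 2 *Tcf7l2* UMIs were needed to be taken, its level describes the nuclei that passed and gives no free measure of the change. In other *Slc17a6* nuclei, which were chosen by *Slc17a6* with at most 1 UMI of *Synpo2* and little cortical marker RNA, *Lef1* stood at 14.9 and 15.1 CPM and *Tcf7l2* at 76.8 and 80.6 CPM. Neither gene moved by 1.5-fold there, and the difference from the relay nuclei was not tested.

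The remaining markers moved less, apart from *Prkcd*. *Slc17a6* (chromosome 7, 51622006 to 51671119, plus strand) had 269 CPM in Normal and 238 CPM in SAH, for a log2 ratio of -0.18 [-0.26, -0.09]. *Vav3* (chromosome 3, 109340653 to 109685698, plus strand) had 1563.5 and 1292.6 CPM, a log2 ratio of -0.27 [-0.31, -0.24]. *Synpo2* (chromosome 3, 123076519 to 123236149, minus strand), an actin-binding protein whose UMIs chose the nuclei, had 1031.4 and 1147.8 CPM. These 3 genes stayed within 1.5-fold. *Prkcd* (chromosome 14, 30595354 to 30626210, minus strand) had 284 CPM [270.3, 298] in Normal and 146 CPM [139, 153] in SAH, for a log2 ratio of -0.96 [-1.05, -0.86].

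A smaller share of SAH than of Normal relay nuclei held *Prkcd*. At least 3 *Prkcd* UMIs were found in 173 of 324 Normal nuclei, 53.4% [47.8, 58.9], and in 257 of 709 SAH nuclei, 36.2% [32.7, 39.9]. No *Prkcd* UMI was found in 103 Normal nuclei, 31.8% [26.8, 37.2], and in 304 SAH nuclei, 42.9% [39.2, 46.6]. In cortical-type nuclei at least 3 UMIs were found in 0.202% in Normal and in 0 of 1118 in SAH, which allows a share of up to 0.268% (3 counts of the total). Thinning each nucleus to 5000 UMIs left out 7 SAH relay nuclei and kept 702. The share with at least 3 then fell to 21.0% in Normal and 8.12% in SAH, and the share with 0 rose to 45.1% and 61.5%. The SAH library thus had the lower share with *Prkcd* at either depth. Nuclei with at least 3 *Prkcd* UMIs were also deeper, with a median of 18125 UMIs in Normal and 19029 in SAH, than those with 0, at 15623 and 14488.5. A nucleus with 0 *Prkcd* UMIs is therefore not shown to lack the transcript. Below, nuclei with *Prkcd* are those with at least 3 UMIs and nuclei without it those with 0.

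**Figure D1:**
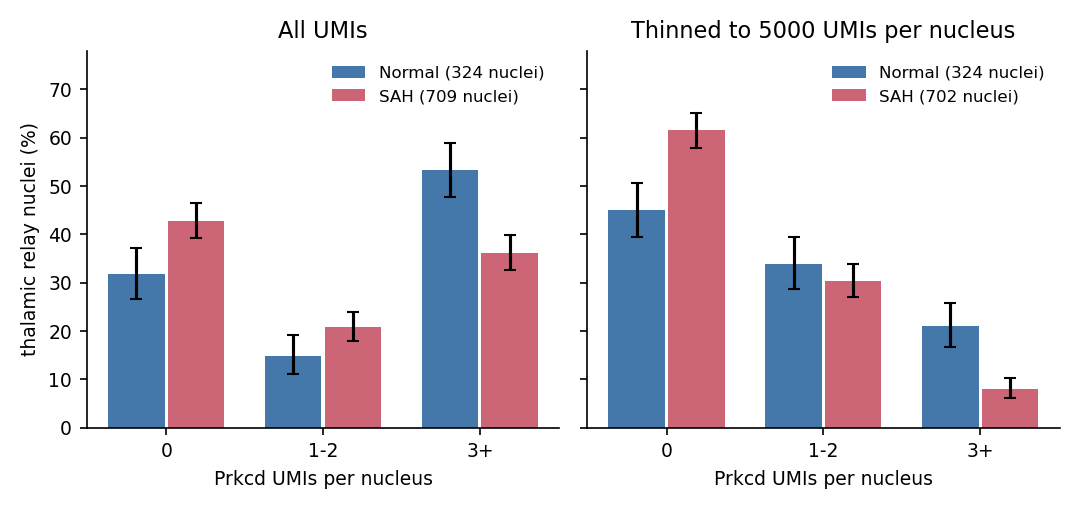
Share of thalamic relay nuclei (vertical axis, %) with 0, 1 to 2 or at least 3 Prkcd UMIs (horizontal axis) in the Normal and SAH libraries, with all UMIs at the left and after thinning each nucleus to 5000 UMIs at the right. Bars are shares and lines are exact 95% binomial intervals for counting error. The share with at least 3 UMIs was 53.4% in Normal and 36.2% in SAH with all UMIs, and 21.0% and 8.12% after thinning. Thinning left out 7 SAH nuclei.

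Since the libraries differed in their mix of *Prkcd* classes, each marker was followed within a class. *Lef1* stood at 901 CPM in Normal and 525 CPM in SAH nuclei with at least 3 *Prkcd* UMIs, at 674 and 344 CPM in those with 1 to 2, and at 319 and 164 CPM in those with 0. It was lower in SAH within every class and lower with less *Prkcd* within each library. *Tcf7l2* stood at 715 and 439 CPM with at least 3 *Prkcd* UMIs, at 756.3 and 440.0 CPM with 1 to 2, and at 610.0 and 397 CPM with 0. It was again lower in SAH within every class, but differed little between classes. *Tcf7l2* chose the nuclei, so these levels describe those that passed and do not back up the fall of *Lef1*. Within the nuclei with at least 3 *Prkcd* UMIs, *Prkcd* itself had 466 CPM in Normal and 307 CPM in SAH, a description of what that limit kept. With the same mix of classes in both libraries *Prkcd* had a log2 ratio of -0.57, within 1.5-fold. The classes were cut on *Prkcd*, so an equal mix takes away part of its difference by construction and checks nothing. *Slc17a6* ran the other way across the classes, from 313 and 294 CPM with 0 *Prkcd* UMIs to 240.2 and 192 CPM with at least 3.

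**Figure D2:**
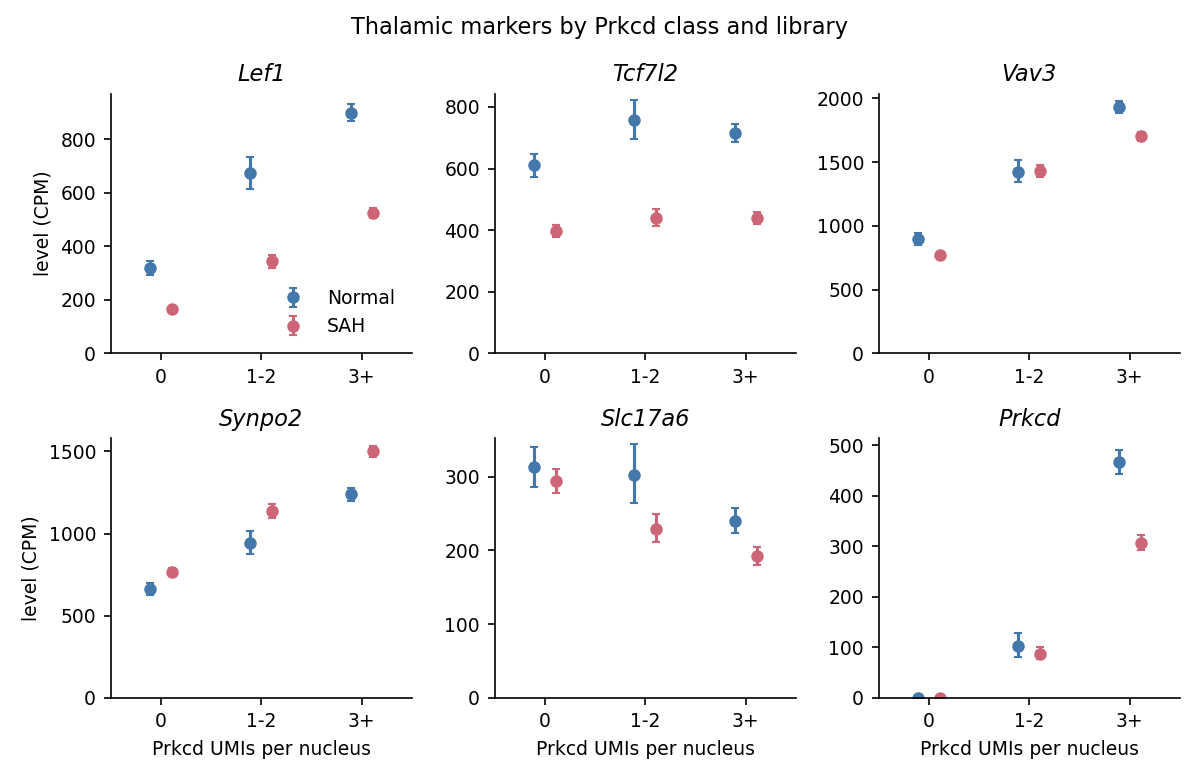
Levels (vertical axes, CPM) of the 6 thalamic markers in relay nuclei with 0, 1 to 2 or at least 3 Prkcd UMIs (horizontal axes), in the Normal and SAH libraries. Points are summed UMIs of a class and lines are exact 95% Poisson intervals, which cover counting error only. Lef1 and Tcf7l2 lay lower in SAH in each class, and Prkcd is at 0 in the first class because the class was cut on it. Tcf7l2 and Synpo2 chose the nuclei, so their levels describe the nuclei that passed.

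*Prkcd* split the relay nuclei into groups that differed in many other genes. Of 8018 genes with at least 200 UMIs in relay nuclei, *Prkcd* left out, 427 (5.33%) were at least 1.5-fold higher and 686 (8.56%) at least 1.5-fold lower in nuclei with at least 3 *Prkcd* UMIs than in those with 0, in both libraries. Only 12 genes were past 1.5-fold in opposite directions in the libraries. The split was made on the same nuclei, so these counts describe it and test nothing.

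The genes highest with *Prkcd* included an RNA-binding protein and an extracellular protease. *Adarb2*, an RNA-binding member of the family of RNA-editing adenosine deaminases, had 4694.8 CPM with at least 3 *Prkcd* UMIs and 524 CPM with 0 in Normal, and 5416.3 and 509.9 CPM in SAH. Its log2 ratio was 3.16 [3.07, 3.26] in Normal and 3.41 [3.35, 3.47] in SAH. At least 3 *Adarb2* UMIs were found in 99.4% and 98.8% of the nuclei with at least 3 *Prkcd* UMIs, against 51.5% and 42.8% of those with 0. *Abhd12b*, of the hydrolase family, had log2 ratios of 3.71 and 3.52. It was also lower in SAH than in Normal, with 69.4 and 189 CPM in all relay nuclei, and within the class with at least 3 *Prkcd* UMIs, with 139.5 and 298 CPM. *Adamts19*, a secreted protease, had log2 ratios of 3.30 and 3.80. *Shisa6*, an auxiliary subunit of AMPA receptors, stood at 606 and 94.3 CPM in Normal and at 543 and 94.3 CPM in SAH. The other 6 of the 10 highest were the endocytic adaptor *Dab2*, the Wnt receptor *Fzd6*, the tetraspanin *Tspan11* and the noncoding *Gm35696*, *Gm26512* and *Sox5os4*, with the smaller of their log2 ratios between 2.62 and 3.64. *Fzd6*, *Gm26512* and *Tspan11* had no more than 4 UMIs in the Normal nuclei without *Prkcd*, so their ratios carry wide intervals, that of *Fzd6* in Normal being 1.69 to 5.62.

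The nuclei without *Prkcd* were richer in a receptor of Wnt ligands, an opioid receptor and a potassium channel partner. *Ror1*, a receptor tyrosine kinase-like protein that binds Wnt ligands, had 3.83 CPM with at least 3 *Prkcd* UMIs and 69.1 CPM with 0 in Normal, and 4.28 and 123 CPM in SAH. *Oprk1*, the kappa opioid receptor, had 1.47 and 19.3 CPM in Normal and 0.584 and 33.1 CPM in SAH, from as few as 3 UMIs. *Kcnip1*, which binds Kv4 potassium channels, had 7.66 and 139 CPM in Normal and 26.1 and 250 CPM in SAH. All 3 were therefore low with *Prkcd* and higher without it in each library. The cannabinoid receptor gene *Cnr1* had log2 ratios of -3.24 and -3.02, the integrin subunit *Itga8* of -3.47 and -3.84, and the transcription factor *Glis3* of -4.06 and -3.50. *Slc44a5*, *Syt10*, *Lypd6b* and *Scml4* made up the rest of the 10 lowest, with log2 ratios between -3.65 and -3.04. Not every nucleus without *Prkcd* carried such genes, since at least 3 *Kcnip1* UMIs were found in 34.0% of them in Normal and 41.1% in SAH, and at least 3 *Ror1* UMIs in 16.5% and 23.4%. In nuclei with at least 3 *Prkcd* UMIs the shares for *Kcnip1* were 1.73% and 5.84%. The classes differed in depth, and thinning each nucleus to 5000 UMIs moved the smaller of the log2 ratios by over 1.5-fold for 7 of the 20 highest and lowest genes. It went from -4.17 to -3.07 for *Ror1*, from -3.50 to -2.33 for *Glis3*, from -3.71 to -2.92 for *Oprk1*, from -3.22 to -2.56 for *Syt10*, from 2.65 to 1.62 for *Dab2* and from 2.62 to 1.25 for *Tspan11*, and grew from -3.04 to -4.30 for *Scml4*. Each kept its direction. Where a class had 0 UMIs of a gene after thinning, 3 counts stood in for it, so that such a ratio is a bound. Thinning also leaves fewer molecules, and the part of depth in these shifts was not tested.

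**Figure D3:**
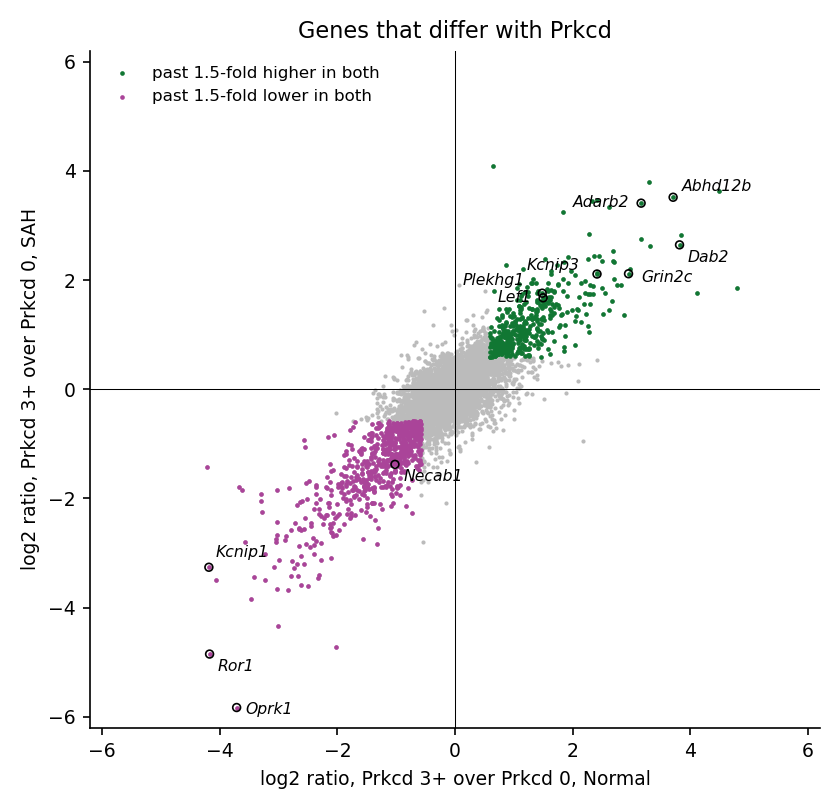
Log2 ratio of relay nuclei with at least 3 Prkcd UMIs over those with 0, in the Normal library (horizontal axis) and in the SAH library (vertical axis), for 8018 genes. Each point is a gene, and coloured points are past 1.5-fold in the same direction in both libraries, 427 higher and 686 lower. Adarb2 and Abhd12b lie far up to the right, and Ror1, Oprk1 and Kcnip1 far down to the left.

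Lists of genes for transcription, excitability and signalling were read on the same split, against 5.33% of all genes higher and 8.56% lower. Among 15 thalamic transcription factors with enough UMIs, *Lef1* and the orphan nuclear receptor *Esrrg* were higher with *Prkcd*, and *Lhx2*, *Lhx9*, *Foxp2* and *Pou2f2* were lower. *Lhx2* had log2 ratios of -1.94 in Normal and -1.89 in SAH and *Lhx9* of -1.58 and -1.55. *Foxp2* was lower on balance, with log2 ratios of -0.81 and -0.88, but at least 3 of its UMIs were found in 79.3% of SAH nuclei without *Prkcd* and in 90.7% of those with at least 3 *Prkcd* UMIs, which were deeper. Of 11 genes used to tell thalamic nuclei apart, among them *Prkcd* itself, which made the split and is not counted, *Plekhg1* was higher, with log2 ratios of 1.48 and 1.76, and the calcium-binding protein gene *Necab1*, the collagen gene *Col12a1* and the serotonin receptor gene *Htr7* were lower. *Calb2*, which encodes calretinin and marks midline and other nuclei, was under the minimum of 200 UMIs. *Calb2* stood at 2.94 CPM with at least 3 *Prkcd* UMIs and 19.9 CPM with 0 in Normal, and at 1.75 and 18.6 CPM in SAH.

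Receptor and Wnt pathway genes split both ways with *Prkcd*, to be read against 5.33% of all genes higher and 8.56% lower. Of 17 glutamate receptor subunits, *Grin2a*, *Grin2b*, *Grin2c* and *Gria3* were higher and *Gria1*, *Grin2d*, *Grin3a* and *Grik4* lower. *Grin2c*, a subunit that makes NMDA receptors less sensitive to magnesium, had log2 ratios of 2.95 in Normal and 2.12 in SAH. *Gria3*, an AMPA receptor subunit, had 1.53 in both, and the metabotropic receptor gene *Grm8* had -2.57 and -2.56. Of 14 GABA receptor subunits, *Gabrd*, found in extrasynaptic receptors, and *Gabbr2* were higher, and *Gabra2*, *Gabra3*, *Gabra5* and *Gabrg1* were among those lower. *Gabrd* had log2 ratios of 2.20 and 1.56, and *Gabra5* of -2.14 and -2.09. Of 15 neuromodulator receptors, 2 adrenergic receptors, *Adra1b* and *Adrb1*, were higher, while 7 were lower, among them *Chrm2*, *Hcrtr2*, *Hrh1*, *Oprm1* and *Htr2c*. Of 23 Wnt pathway genes, *Lef1*, *Fzd6*, *Prickle1* and *Prickle2* were higher and *Ror1*, *Nkd1*, *Bcl9* and *Axin2* lower.

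Among channels, the split ran through the potassium and calcium families, to be read against 5.33% of all genes higher and 8.56% lower. *Pex5l*, which encodes a partner of HCN channels, was higher with *Prkcd*, with log2 ratios of 1.40 in Normal and 1.26 in SAH. Of 32 potassium channel genes, *Kcna1*, *Kcnc1*, *Kcnc2* and *Kcnd3* were higher and *Kcnq5*, *Kcnt2*, *Kcnh1*, *Kcnh7* and *Kcnip1* lower. *Kcnc1*, which makes channels of the fast-spiking Kv3 type, had log2 ratios of 0.98 and 1.40. *Kcnq5*, of the M-current family, had -2.01 and -2.32. The calcium channel gene *Cacna1e* had -1.72 and -1.97, while *Cacna1g*, the T-type channel of relay neurons, had 0.39 and 0.04 and stayed within 1.5-fold. The calcium channel subunit gene *Cacna2d2* and the sodium channel subunit gene *Scn3b* were lower too, and *Cacna1c* was higher. Of 29 axon guidance genes 4 were higher and 11 lower, against the same shares of all genes. The netrin receptor gene *Dcc* had log2 ratios of -1.39 and -2.08.

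The genes whose levels most followed *Prkcd* over the 3 classes and 2 libraries were *Bicc1*, *Rgs8*, *Gm38085*, *Appl2* and *Kcnip3*, with Pearson's r of 0.993 to 0.995 over 6 points that share libraries and nuclei. *Kcnip3* stood at 99.8 CPM with at least 3 *Prkcd* UMIs and 18.7 CPM with 0 in Normal, and at 80.4 and 18.6 CPM in SAH. *Rgs8*, a regulator of G protein signalling, stood at 46.5 and 19.3 CPM in Normal and at 37.6 and 20.8 CPM in SAH. This pattern is what the choice by correlation asked for and is a description. *Appl2* spanned much less, from 28.7 to 39.8 CPM in Normal.

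Between the libraries, 563 of 8019 genes (7.02%) were at least 1.5-fold higher in SAH relay nuclei and 754 (9.4%) at least 1.5-fold lower. The median log2 ratio of all 8019 genes was -0.06, with percentiles 10 and 90 at -0.57 and 0.45. In cortical-type nuclei the median of the same genes was -0.11. The ratio followed the length of the gene in both kinds of nuclei. The 674 genes under 10000 bases had a median log2 ratio of -0.43 in relay and -0.47 in cortical-type nuclei, and 36.8% of them were past 1.5-fold lower in relay nuclei. The 2004 genes over 100000 bases had medians of 0.11 and 0.06. Of 667 long noncoding genes, 38.2% were past 1.5-fold higher, against 4.18% of 7349 protein-coding genes. When each ratio was centred on genes of like length, a choice made after the data were seen, 648 genes were higher and 363 lower. The balance of rises and falls also turned under 2 settings that were not centred on length. There were 652 higher and 618 lower when ratios were centred on their median, and 120 and 98 among genes of at least 1000 UMIs. The lengths of the genes with at least 1000 UMIs were not compared. The cause of this pattern was not tested.

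**Figure D4:**
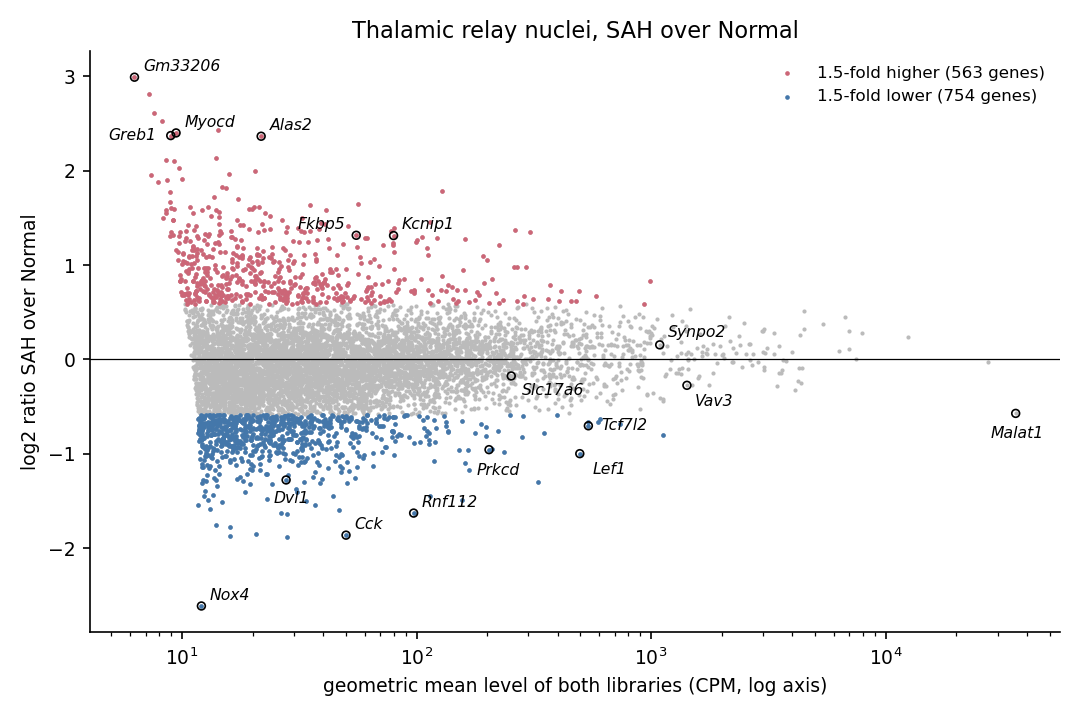
Log2 ratio SAH over Normal (vertical axis) against the geometric mean level of both libraries (horizontal axis, CPM, log scale) in thalamic relay nuclei. Each point is 1 of 8019 genes with at least 200 UMIs, with 563 past 1.5-fold higher, 754 past 1.5-fold lower and named genes circled. Lef1 and Tcf7l2 lie among the more abundant genes that were lower, and Gm33206 and Nox4 are the highest and lowest points.

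The 10 largest rises were 7 noncoding genes and the protein-coding *Myocd*, *Greb1* and *Alas2*. *Myocd*, which encodes the transcriptional coactivator myocardin, had 4.11 CPM in Normal and 21.7 CPM in SAH, for a log2 ratio of 2.40 [1.80, 3.07]. *Myocd* rose by 2.76 [2.10, 3.50] with *Prkcd* and had a log2 ratio of 1.64 [-0.44, 4.79] without it, from 2 Normal UMIs. Its log2 ratio was 0.43 in cortical-type and 0.46 in other *Slc17a6* nuclei. *Greb1*, known as a gene of the oestrogen response, had 3.93 and 20.4 CPM and a log2 ratio of 2.37 [1.76, 3.06], with -0.52 in other *Slc17a6* nuclei. In relay nuclei *Greb1* rose by 2.77 with *Prkcd* and by 1.58 without it. *Alas2*, the first enzyme of haem synthesis in red cell precursors, had 9.58 and 49.4 CPM, a log2 ratio of 2.37 [1.97, 2.79]. *Alas2* was also higher in cortical-type nuclei, with 149 and 720 UMIs, while the haemoglobin genes themselves were at 2.91 CPM in Normal and 2.04 CPM in SAH relay nuclei. The noncoding genes were *Gm33206*, *Gm20149*, *4930579O11Rik*, *Gm9984*, *Gm15336*, *Gm50401* and *Gm33696*, with log2 ratios of 2.11 to 2.99, and in cortical-type nuclei of 1.46 to 3.77. *Gm20149*, *Gm9984*, *Gm15336* and *Gm33696* are annotated as antisense to other genes, and their counts are uncertain where transcripts overlap.

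Of the 10 largest falls, *Nox4* and *Opn3* had no like fall in cortical-type nuclei. *Nox4*, an NADPH oxidase that makes hydrogen peroxide, had 29.9 CPM in Normal and 4.89 CPM in SAH, for a log2 ratio of -2.61 [-3.06, -2.18]. The fall was -3.58 without *Prkcd* and -0.79 with it, and in cortical-type nuclei the gene had 4 and 30 UMIs. *Opn3*, an opsin, had 30.8 and 8.40 CPM and a log2 ratio of -1.88 [-2.24, -1.52], against -0.31 in cortical-type nuclei. It fell by 1.90 with *Prkcd* and had a log2 ratio of -0.39 without it. The neuropeptide gene *Cck* had 95.4 and 26.2 CPM, a log2 ratio of -1.86 [-2.06, -1.66], and -1.76 in cortical-type nuclei. *Actb*, which encodes beta-actin, had 46.7 and 15.1 CPM. *Dtx3*, *Dalrd3*, *Tspan17*, *Haghl*, *Ring1* and *Rnf112* completed the list, with log2 ratios of -1.88 to -1.63, and in cortical-type nuclei of -1.99 to -0.98. Each of these 6 and *Cck* and *Actb* is under 10000 bases long.

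*Malat1*, a noncoding RNA kept in the nucleus, took the largest share of UMIs, not corrected for length, with 43700.7 CPM in Normal and 29392 CPM in SAH. Its log2 ratio was -0.57, just within 1.5-fold, and it was -0.54 with *Prkcd* and -0.59 without it. Other genes among those with the most UMIs were *Kcnip4*, *Rbfox1*, *Ptprd*, *Nrg3*, *Pcdh9*, *Lsamp*, *Meg3* and *Cntnap2*. Their log2 ratios lay between -0.03 and 0.45, and none was past 1.5-fold. Of 7 nuclear-retained RNAs none was past 1.5-fold either, with *Mirg* at -0.51, where 16.4% of all genes were past it.

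Among thalamic transcription factors, with *Tcf7l2* left out because it chose the nuclei, 3 of 14 fell (*Lef1*, *Shox2* and *Zic1*) and *Meis2* rose, against 9.4% of all genes lower and 7.02% higher. The median log2 ratio of these 14 was 0.06. *Shox2*, a homeobox factor, had 33.2 CPM in Normal and 21.6 CPM in SAH, for a log2 ratio of -0.62 [-0.89, -0.34]. *Zic1*, a zinc finger factor, had 53.7 and 35.6 CPM, a log2 ratio of -0.59 [-0.81, -0.38]. *Shox2* and *Zic1* were no longer past 1.5-fold when centred on genes of like length, at -0.27 and -0.23. *Meis2* had 9.06 and 17.7 CPM, a rise of 0.96 that was 3.22 [1.96, 4.87] without *Prkcd*, from 5 Normal UMIs, and 0.10 with it. *Rora*, *Rorb* and *Foxp2*, other factors of this lineage, had log2 ratios of -0.06, 0.36 and 0.37. Of the 11 nuclear group markers, *Cck* and *Prkcd* fell and none rose, against 9.4% and 7.02% of all genes, with a median of -0.39. With the same mix of *Prkcd* classes *Prkcd* was at -0.57, which the cut on *Prkcd* brings about in part by construction. *Rgs16*, under the minimum of 200 UMIs, had 18.6 and 5.30 CPM.

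Of 22 Wnt pathway genes, *Tcf7l2* left out, 6 fell and 1 rose, against 9.4% and 7.02% of all genes. Beside *Lef1* those that fell were *Dvl1*, the intracellular mediator of Frizzled receptors, the ligands *Wnt3* and *Wnt4*, the scaffold and target *Axin2* and the planar polarity gene *Prickle1*. *Dvl1* had 43.3 CPM in Normal and 17.9 CPM in SAH, for a log2 ratio of -1.28 [-1.54, -1.01], and -1.12 in cortical-type nuclei. *Wnt4* had 21.4 and 11.5 CPM, a log2 ratio of -0.90 [-1.25, -0.54], and *Prickle1* had 752.3 and 485 CPM, -0.63 [-0.69, -0.58]. *Ror1* rose from 25.8 to 53.4 CPM, by 1.05 [0.79, 1.31], but had a log2 ratio of 0.16 in nuclei with *Prkcd*, against 0.84 in those without. The genes of beta-catenin, *Apc* and *Gsk3b* had log2 ratios of -0.13, 0.18 and -0.02. *Wnt3*, *Prickle1* and *Axin2* lay near the limit and were within 1.5-fold when ratios were centred on their median, at -0.54, -0.58 and -0.56. With the same *Prkcd* mix *Wnt3* had -0.55 and *Prickle1* -0.52. The median of these 22 genes was -0.13.

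In the genes of excitability, falls and rises were both present. Among the HCN genes, *Hcn2* and *Hcn4* fell. *Hcn2* had 35.6 CPM in Normal and 18.7 CPM in SAH, for a log2 ratio of -0.93 [-1.21, -0.65], and fell by 0.95 with and 1.05 without *Prkcd*. *Hcn4* had 20.0 and 11.2 CPM, -0.84 [-1.21, -0.47], and -0.05 without *Prkcd*. In cortical-type nuclei *Hcn2* and *Hcn4* had log2 ratios of -0.70 and -0.58.

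*Cacna1g*, the T-type calcium channel, was the 1 of 11 calcium channel genes past 1.5-fold, near the 16.4% of all genes past it either way, with 137 CPM in Normal and 89.4 CPM in SAH. Its log2 ratio was -0.61 [-0.75, -0.48], near the limit, with -0.74 in nuclei with *Prkcd* and -0.39 in those without. It was within 1.5-fold once doublets were removed, at -0.57, or ratios were centred on their median, at -0.56. *Cacna1c* and *Cacna1a*, which make L-type and P/Q-type channels, had 0.02 and -0.44. Of 9 sodium channel genes *Scn2b* alone fell, near the 9.4% of all genes that did, with a log2 ratio of -0.67, and -0.35 when centred on genes of like length. The pore-forming *Scn1a*, *Scn2a* and *Scn8a* had 0.01, 0.12 and -0.33.

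Of 32 potassium channel genes, *Kcnip1* and *Kcnh1* rose and *Kcnj3*, *Kcnj9*, *Kcnk3*, *Kcnt1* and *Kcna4* fell, against 7.02% and 9.4% of all genes, and the median of the 32 was -0.02. *Kcnip1* had 50.6 CPM in Normal and 126 CPM in SAH, for a log2 ratio of 1.31 [1.13, 1.5]. It rose with *Prkcd* by 1.77 and without it by 0.84, against 0.31 in cortical-type nuclei. *Kcnh1* had 11.5 and 23.4 CPM, 1.03 [0.64, 1.44], and was within 1.5-fold in cortical-type nuclei and after thinning, at 0.51. *Kcnj3* and *Kcnj9* encode subunits of channels opened by G proteins. *Kcnj3* had 746 and 471 CPM, -0.66 [-0.72, -0.61], against 0.49 in cortical-type nuclei and -0.55 after thinning. *Kcnj9* had 76.3 and 41.7 CPM, -0.87 [-1.06, -0.68], and -0.52 when centred on genes of like length, where *Kcna4* had -0.29. *Kcnk3*, a leak channel, had 17.8 and 10.7 CPM, -0.74, but 0.05 after thinning.

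The counts for glutamate and GABA receptors stand against 7.02% of all genes higher and 9.4% lower. Among 17 ionotropic glutamate receptor subunits *Grik4* rose by 0.71 and *Grik5* fell by 0.62, and the list's median was 0.06. *Grik4* was within 1.5-fold in both *Prkcd* classes, at 0.48 with *Prkcd* and 0.39 without it, and *Grik5* was within it after thinning, at -0.49. Among 7 metabotropic receptors *Grm2* fell, from 15.2 to 9.37 CPM, but had -0.42 when centred on genes of like length. Among 14 GABA receptor subunits *Gabra5* and *Gabrg1* rose. *Gabra5* had 42.8 CPM in Normal and 67.2 CPM in SAH, for a log2 ratio of 0.65, and *Gabrg1* had 18.1 and 29.8 CPM, 0.72. Neither was past 1.5-fold in either *Prkcd* class or with the same mix of classes, where they had 0.41 and 0.43.

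Of 15 neuromodulator receptors 3 rose and 1 fell, against 7.02% and 9.4% of all genes. *Hcrtr2*, a receptor for the arousal peptide orexin, had 8.72 CPM in Normal and 23.6 CPM in SAH, for a log2 ratio of 1.43 [1.00, 1.89], with 0.75 and 0.97 in nuclei with and without *Prkcd* and 0.08 in cortical-type nuclei. *Oprk1* had 6.67 and 13.9 CPM, 1.06 [0.55, 1.60], and *Hrh1*, a histamine receptor, 8.21 and 13.4 CPM, 0.70 [0.23, 1.20]. *Hrh1* was within 1.5-fold with *Synpo2* limits of 3 or 10 UMIs, at 0.36 for either, and with the same *Prkcd* mix, at 0.40. In nuclei with at least 3 *Prkcd* UMIs these 2 genes had few molecules, and log2 ratios of -1.33 [-4.02, 1.03] for *Oprk1* and -0.60 [-1.88, 0.69] for *Hrh1*. *Adrb1*, the beta-1 adrenergic receptor, fell from 33.9 to 18.3 CPM, by 0.88, and had -1.15 in cortical-type nuclei and -0.57 when centred on genes of like length.

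Of 29 axon guidance genes 3 rose and 4 fell, against 7.02% and 9.4% of all genes. *Sema3a*, a secreted semaphorin, had 4.79 CPM in Normal and 16.4 CPM in SAH, for a log2 ratio of 1.77 [1.20, 2.40], and rose by 1.26 with and 1.63 without *Prkcd*. In cortical-type nuclei its log2 ratio was -0.38. Its receptor gene *Nrp1* had 51.5 and 25.4 CPM, -1.02 [-1.25, -0.78], and fell by 1.35 with and 0.99 without *Prkcd*. *Plxna1*, the partner of *Nrp1*, fell by 0.79 and the ephrin receptor gene *Epha4* by 0.78, from 457 to 267 CPM. *Sema7a* fell by 0.60 in all relay nuclei but had a log2 ratio of 0.46 without *Prkcd*, and *Slit1* and *Sema5a* rose by 0.61 and 0.59, just past the limit. *Slit1* was within 1.5-fold without doublets, at 0.51, with a *Synpo2* limit of 3 UMIs, at 0.44, and with the same *Prkcd* mix, at 0.35. *Sema5a* was within it when centred on genes of like length, at 0.41.

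**Figure D5:**
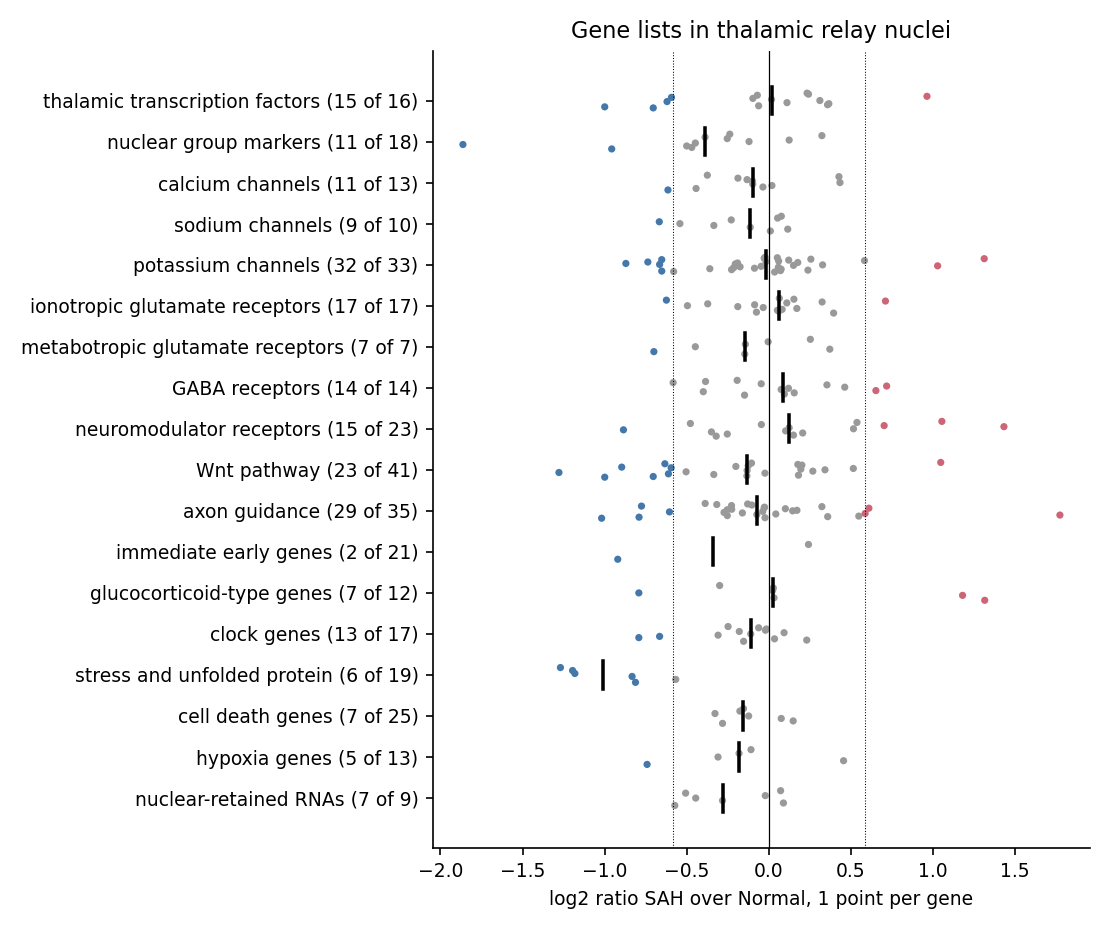
Log2 ratio SAH over Normal (horizontal axis) of the genes of the lists named at the left, in thalamic relay nuclei, with the number compared of the number in each list. Each point is a gene, dotted lines mark 1.5-fold, and black bars are the list medians. Stress and unfolded protein genes have the lowest median, at -1.01, and Sema3a, Hcrtr2, Fkbp5 and Kcnip1 are the 4 points furthest to the right.

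Of 12 genes of the response to glucocorticoids 7 were compared, of which *Fkbp5* and *Zbtb16* rose and *Per1* fell, against 7.02% and 9.4% of all genes. The median log2 ratio of the 7 was 0.03. *Fkbp5*, a cochaperone of the glucocorticoid receptor and a target of it, had 35.1 CPM in Normal and 87.3 CPM in SAH, for a log2 ratio of 1.32 [1.10, 1.54]. It rose by 1.38 with *Prkcd*, 1.34 without it and 1.25 in cortical-type nuclei. *Zbtb16*, a zinc finger factor, had 28.2 and 64.0 CPM, 1.18 [0.94, 1.43], and 0.75 in cortical-type nuclei. *Per1*, which is also a clock gene, fell from 29.8 to 17.2 CPM, by 0.79, and *Sgk1* and the receptor gene *Nr3c1* had 0.03 and 0.02. Of 13 clock genes *Per1* and *Per2* fell and none rose, against 9.4% and 7.02% of all genes. *Per1* was within 1.5-fold when centred on genes of like length, at -0.57, and *Per2* after thinning, at -0.43.

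Of 6 stress and unfolded protein genes with enough UMIs, 5 fell and none rose, of 19 in the list, against 9.4% of all genes lower and 36.8% of those under 10000 bases. The median log2 ratio was -1.01 in relay and -0.78 in cortical-type nuclei, beside -0.06 for all genes. *Hsp90ab1*, a heat shock protein, had 77.8 CPM in Normal and 34.3 CPM in SAH, for a log2 ratio of -1.18 [-1.38, -0.99]. *Hspa5*, a chaperone of the endoplasmic reticulum, had 109 and 62.3 CPM, -0.81 [-0.97, -0.66], and *Xbp1*, a transcription factor of the unfolded protein response, 26.5 and 11.0 CPM, -1.27 [-1.61, -0.93]. These are mostly short genes, and centred on genes of like length *Hspa5* and *Hsp90aa1* stood at -0.37 and -0.52, within 1.5-fold. On the same scale *Hsph1*, a further heat shock protein, stood at -0.998, *Xbp1* at -0.80 and *Hsp90ab1* at -0.73, still past it.

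Immediate early, cell death and hypoxia genes were mostly under the minimum of 200 UMIs. Of 21 immediate early genes 2 had enough UMIs, and of these *Nr4a1* had 21.9 CPM in Normal and 11.6 CPM in SAH, for a log2 ratio of -0.92, and *Homer1* had 0.24. *Fos* had 22 UMIs in Normal and 7 in SAH. Of 25 cell death genes 7 were compared and none was past 1.5-fold, where 16.4% of all genes were. The list is too short to tell from them. *Parp1* had -0.33 and *Bcl2* -0.28, but *Bcl2* had -1.12 in nuclei with *Prkcd* and -0.10 in those without. Of 5 hypoxia genes compared *Vegfa* fell, by 0.74, and none rose, against 9.4% and 7.02% of all genes. Centred on genes of like length *Vegfa* had -0.52.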

How the data were processed

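The deposited files hold UMI counts per gene and nucleus, 1 matrix per library, which the authors made with Cell Ranger on mm10, counting intronic reads. The labels name version 5.0.0 and the matrix headers 6.1.2. The libraries held 114970719 and 172604358 counts in 12204 and 18209 nuclei, and no count was normalised before deposit. The relay nuclei and the gene lists were chosen with earlier results of these data known.

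Here counts were summed over nuclei and given as CPM with exact Poisson intervals. Ratios have exact conditional binomial intervals and shares have exact Clopper-Pearson intervals, while the limit beside a count of 0 is 3 counts of the total (Python 3.11.15, numpy 2.4.6, scipy 1.17.1). Genes with at least 200 UMIs over both libraries were compared at 1.5-fold, and those past it are said to have risen or fallen. No model was fitted and no p-value computed. Doublets were kept, and as an alternative the nuclei with the highest Scrublet scores (scanpy 1.11.5), 0.8% per 1000 nuclei, were removed, which took 34 Normal and 84 SAH relay nuclei. Gene positions are from GENCODE vM21, which matched 32158 of 32285 genes. The text names the 6 markers, the 10 largest rises and falls, the 10 genes with the most UMIs, list genes past 1.5-fold or else the 2 with the largest change, the 10 highest and lowest genes by *Prkcd* and the 5 genes most like *Prkcd*. Other list members, such as *Rora*, *Calb2*, *Ctnnb1* or *Sgk1*, and *Abhd12b* between libraries were added after their values were seen. Alternatives varied the limits on nuclei, depth, weighting, scaling, gene minimum, *Prkcd* mix and *Prkcd* threshold. Centring on the 500 genes nearest in length and the ratios within 1 *Prkcd* class were added after the data were seen. Some genes that the rule names are not reported here.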

Additional observations from a re-analysis of the deposited data

Results flagged for a closer look

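In 7 of 8019 genes the log2 ratio SAH over Normal was past 1.5-fold in opposite directions in relay nuclei with at least 3 *Prkcd* UMIs and in those with 0, with both counting intervals clear of 0. They were found by a search of all genes, and the difference between the classes was not tested. *Vash2* had 1.22 with *Prkcd* and -0.75 without it, *Snx31* had 1.15 and -0.62, *Igip* had 0.61 and -0.76, and *Arhgef37* had 0.91 and -0.94. *Pparg*, a nuclear receptor of lipid metabolism, had -0.90 with *Prkcd* and 0.73 without it. *Gm27016* had -0.85 and 0.66, and *Traf3*, an adaptor of cytokine receptor signalling, had -0.85 and 0.68. These rest on few molecules, such as 31 and 26 *Traf3* UMIs with *Prkcd* and 26 and 114 without it.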

How the results depend on the processing

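With 1 library per condition, counting intervals leave out the spread between mice, and condition, pooled mice and library cannot be told apart. Genes under 200 UMIs, among them most immediate early and cell death genes, were left out by choice, since few counts give wide intervals. No paired analysis was possible because each condition has 1 library. The counts of genes higher and lower, 563 and 754, were 1410 and 1719 of 12507 genes with at least 50 UMIs and 120 and 98 of 2842 with at least 1000. They were 227 and 244 of 3824 genes after thinning, 320 and 425 of 5221 in nuclei with at least 3 *Prkcd* UMIs alone, and 244 and 258 of 4472 in those with 0, where fewer genes reached the minimum. Centred on their median they were 652 and 618, and on genes of like length 648 and 363, and the cause was not tested. *Synpo2* limits of 3 and 10 UMIs gave 3.75% and 2.34% of Normal and 5.08% and 3.55% of SAH nuclei, and without the Gad and *Mobp* limits the SAH share was 5.00%. After thinning, *Prkcd* was at 0 in 45.1% and 61.5% and at least 3 in 21.0% and 8.12%. Among named genes past 1.5-fold, the log2 ratio SAH over Normal turned to 0.32 for *Dab2* and 0.46 for *Sema7a* without *Prkcd*, to -0.60 for *Hrh1*, -1.33 for *Oprk1* and -0.0125 for *Scml4* with *Prkcd*, and to 0.0544 for *Kcnk3* after thinning. Of 79 named genes past 1.5-fold, 19 were not past it when centred on genes of like length, 19 without *Prkcd*, 14 with *Prkcd*, 10 with the same *Prkcd* mix, 9 after thinning, 8 with a *Synpo2* limit of 10 UMIs, 8 when centred on the median and at most 4 under each other setting that could change a ratio. The 10 with the same *Prkcd* mix include *Prkcd* itself, on which the classes were cut. The UMI minimum does not enter a ratio, and the added limits on mitochondrial, haemoglobin and total UMIs removed no nucleus.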

Other observations

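*Tnnt1*, a troponin gene used as a marker of thalamic nuclei, was seen with at least 1 UMI in 15.4% of Normal and 7.33% of SAH relay nuclei, against 0.101% of the Normal and 0 of the 1118 SAH cortical-type nuclei, which allows a share of up to 0.268% (3 counts of the total). *Calb1*, which encodes calbindin, was seen in 55.9% and 48.4% of relay nuclei, above the 25.2% and 23.4% of cortical-type nuclei. *Necab1* was seen in 63.0% and 61.1% of relay nuclei, close to the 60.1% and 61.6% of cortical-type nuclei. Median depths of these nuclei were 16350 and 16025 UMIs for relay and 16891 and 17091.5 for cortical-type nuclei.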
